A study of Arabidopsis thaliana with 14 samples.

Results

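The seed storage protein genes of Arabidopsis thaliana described here are 8 loci, 5 encoding small napin-type albumins (SESA1, AT4G27140; SESA2, AT4G27150; SESA3, AT4G27160; SESA4, AT4G27170; SESA5, AT5G54740) and 3 encoding cruciferins, the hexameric storage globulins (CRA1, AT5G44120; CRU2, AT1G03880; CRU3, AT4G28520). They were taken by locus identifier, 8 of 27444 annotated protein-coding genes, and every analysis window that overlapped one of the genes or its 2 kb flanks was used, which gave 178 of 595735 nuclear windows. Whole-genome bisulfite sequencing, which reads an unmethylated cytosine as T and leaves a methylated cytosine as C, was performed on DNA of endosperm and embryo from greenhouse plants, dissected 6 days after pollination near the torpedo stage. The crosses, female parent first, were the hybrids Col x Cvi, Cvi x Col, Cvi x Ler and Ler x Cvi and the selfed strains Cvi x Cvi, Ler x Ler and Col x Col (Col is Col-0), all without any mutation or treatment named in the labels. Each of the 7 crosses gave 1 endosperm and 1 embryo library from seeds pooled over many fruits, so the 14 libraries form 14 groups of 1, and a test on the calls of a pair of libraries compares those libraries and carries no error between plants. Endosperm is the nutritive tissue beside the embryo, with an extra maternal genome, and a dissected tissue mixes cell types, so a level is an average over cells and over both parental alleles.

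Storage proteins are made in bulk during seed maturation, packed into protein storage vacuoles and broken down to feed the seedling. Their genes are switched on by B3-domain regulators (ABI3, FUS3, LEC2), which bind the RY element of their promoters, and by bZIP proteins, which bind sequences with an ACGT core, and are kept off in vegetative tissue by VAL repressors and the chromatin remodeller PICKLE. Plant DNA is methylated at CG sites and also at CHG and CHH sites (H standing for A, C or T). Methylation of CG alone is typical of the bodies of many broadly expressed genes, and methylation of all the contexts is typical of transposons and repeats. Endosperm loses CG methylation at many sites through the maternally active demethylase DEMETER.

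The albumin genes SESA1 to SESA4 stand in tandem on chromosome 4, all on the plus strand: SESA1 at chr4:13607329-13608031, SESA2 at chr4:13609341-13610075, SESA3 at chr4:13611796-13612563 and SESA4 at chr4:13613596-13614283. Their flanks therefore overlap, and a flank of one holds the body of the next. The other members are single genes: SESA5 at chr5:22238358-22239187 (minus strand), CRA1 at chr5:17756238-17758336 (minus strand), CRU2 at chr1:985751-988146 (plus strand) and CRU3 at chr4:14087556-14089796 (plus strand). Positions are TAIR10, and gene models and sequences are RefSeq's for TAIR10.1, which has the same nuclear chromosomes.

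Promoters of 5 members, the 250 bases before the annotated start, are printed 5′ to 3′ on the gene's strand because no methylated window was found in them and because they carry the sequences through which these genes are known to be regulated. Capitals mark RY elements (CATGCA or TGCATG, either strand) and ACGT cores.
SESA1 promoter, chr4:13607079-13607328, plus strand: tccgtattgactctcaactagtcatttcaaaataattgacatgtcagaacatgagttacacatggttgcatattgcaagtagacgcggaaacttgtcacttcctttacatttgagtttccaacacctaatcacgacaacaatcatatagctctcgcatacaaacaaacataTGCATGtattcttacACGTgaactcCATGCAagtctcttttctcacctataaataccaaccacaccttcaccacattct
SESA3 promoter, chr4:13611546-13611795, plus strand: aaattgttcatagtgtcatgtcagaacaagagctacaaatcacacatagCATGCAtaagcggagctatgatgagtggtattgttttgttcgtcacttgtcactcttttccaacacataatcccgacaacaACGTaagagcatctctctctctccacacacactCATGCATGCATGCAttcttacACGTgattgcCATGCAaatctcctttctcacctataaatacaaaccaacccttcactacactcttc
SESA4 promoter, chr4:13613346-13613595, plus strand: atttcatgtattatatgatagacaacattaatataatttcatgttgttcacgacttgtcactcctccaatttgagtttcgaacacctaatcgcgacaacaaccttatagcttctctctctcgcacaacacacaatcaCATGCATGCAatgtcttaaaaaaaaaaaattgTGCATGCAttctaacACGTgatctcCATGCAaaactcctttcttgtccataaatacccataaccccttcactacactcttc
CRA1 promoter, chr5:17758337-17758586, minus strand: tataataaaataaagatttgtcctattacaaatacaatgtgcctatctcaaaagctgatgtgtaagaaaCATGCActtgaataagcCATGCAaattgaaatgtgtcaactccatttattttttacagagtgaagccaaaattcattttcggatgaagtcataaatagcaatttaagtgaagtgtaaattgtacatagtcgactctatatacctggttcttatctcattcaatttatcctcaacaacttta
CRU3 promoter, chr4:14087306-14087555, plus strand: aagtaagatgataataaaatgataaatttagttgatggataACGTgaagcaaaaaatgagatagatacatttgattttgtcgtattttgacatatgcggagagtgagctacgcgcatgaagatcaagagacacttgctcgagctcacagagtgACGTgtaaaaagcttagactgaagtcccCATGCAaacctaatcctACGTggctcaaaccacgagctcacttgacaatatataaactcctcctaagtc

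The promoters of 7 of the 8 members are described, so the counts that follow are not counts over all members and no share of members can be read from them. The RY element stood in each of these 7 and in 8.43% of 27443 promoters of the same length. SESA3 had 7 matches and SESA4 had 6, several of which overlap one another within runs of CATG repeats, SESA5 had 4, SESA2 had 3, SESA1 and CRA1 had 2 each and CRU3 had 1. The G-box CACGTG, which contains an ACGT core, was found in all 5 albumin promoters and in neither the CRA1 nor the CRU3 promoter, against 6.49% of all promoters. In each albumin promoter an RY element began between 57 and 54 bases before the start, with the ACGT core 10 bases upstream of it. ACGT alone was in 6 of these 7 promoters, against 44.1% of all promoters. These matches are a description of the letters and not of binding. These promoters held 2 to 12 CG sites (median over all promoters 5).

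Some stretches outside the members carry most of the methylated windows near them, and one 300 nt window of each is printed on the plus strand, with every CG in capitals, so that the stretches in which libraries are compared further on can be seen. Other windows of the ATK2 and PHB1 stretches also differed between libraries and are given by position.
AT4G27130 window upstream of SESA1, chr4:13605201-13605500, plus strand: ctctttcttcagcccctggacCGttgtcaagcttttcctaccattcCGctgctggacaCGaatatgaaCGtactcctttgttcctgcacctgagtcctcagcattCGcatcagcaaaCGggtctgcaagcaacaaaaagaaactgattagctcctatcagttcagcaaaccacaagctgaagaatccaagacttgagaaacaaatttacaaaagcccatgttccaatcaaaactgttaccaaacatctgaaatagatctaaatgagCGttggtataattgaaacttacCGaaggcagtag
ATK2 window downstream of SESA4, chr4:13615801-13616100, plus strand: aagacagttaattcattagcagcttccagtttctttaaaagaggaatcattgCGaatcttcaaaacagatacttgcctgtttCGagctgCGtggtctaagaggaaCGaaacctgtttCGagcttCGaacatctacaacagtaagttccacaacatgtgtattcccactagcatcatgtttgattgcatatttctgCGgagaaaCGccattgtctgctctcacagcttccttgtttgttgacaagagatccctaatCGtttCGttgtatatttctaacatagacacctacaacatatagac
PHB1 window upstream of CRU3, chr4:14085801-14086100, plus strand: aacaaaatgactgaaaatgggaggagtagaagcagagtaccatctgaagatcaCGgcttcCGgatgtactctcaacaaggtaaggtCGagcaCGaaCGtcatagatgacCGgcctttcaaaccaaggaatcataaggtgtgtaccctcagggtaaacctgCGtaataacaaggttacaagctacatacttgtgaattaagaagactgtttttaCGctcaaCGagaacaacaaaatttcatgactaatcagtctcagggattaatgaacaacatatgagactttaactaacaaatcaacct
Intergenic window upstream of CRA1, chr5:17759801-17760100, plus strand: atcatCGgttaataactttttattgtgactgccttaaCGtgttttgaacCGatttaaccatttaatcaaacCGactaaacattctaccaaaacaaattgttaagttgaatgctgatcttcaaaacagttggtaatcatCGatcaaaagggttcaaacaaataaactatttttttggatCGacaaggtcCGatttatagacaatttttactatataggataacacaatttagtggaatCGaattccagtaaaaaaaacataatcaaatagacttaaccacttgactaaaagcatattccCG

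The first window lies 1829 nt before SESA1 and overlaps a coding exon of the neighbouring gene AT4G27130 (chr4:13604466-13606468, minus strand), 134 of its bases being coding and the rest intronic. The second lies 1518 nt after SESA4 in ATK2 (AT4G27180, chr4:13614822-13619312, minus strand), which encodes a kinesin motor, with 209 coding bases. The third lies 1456 nt before CRU3 in PHB1 (AT4G28510, chr4:14084624-14086882, minus strand), which encodes a prohibitin of the mitochondrial inner membrane, with 117 coding bases. The fourth lies 1465 nt before CRA1 and overlaps no annotated gene. The windows hold 8, 10, 9 and 9 CG sites in that order, and no base of them is annotated as UTR.

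The authors summed calls, a call being 1 read of 1 cytosine, over 300 nt windows placed every 200 nt, and levels below are methylated calls as a percent of all calls. CG calls per library, summed over windows, numbered 8096343 to 62566453 in the 7 embryos, 8763800 to 21029487 in the Ler x Ler, Cvi x Cvi and Cvi x Ler endosperms and 214040 to 963440 in the other 4 endosperms. Of the 178 windows, CG calls were present for 137 to 162 in the 3 deeper endosperms, for 4 to 34 in the 4 shallow endosperms and for 137 to 178 in the embryos, so levels over libraries are given for the 10 deeper libraries, and the whole-locus tissue model, which also takes in shallow endosperms where they had calls, is given with and without them. The tissue labels were checked on FWA, SDC, MEA, FIS2 and HDG9, genes known to be less methylated in endosperm: 41 of 257 CG window tests were called lower and 1 was called higher in endosperm. Over all windows, 6.01% to 15.3% were called by pair, in either direction. The count pools the 7 pairs and does not check the label of each library. The Cvi x Ler embryo stood apart: over the genome its CG window levels correlated with those of the other embryos at r = 0.644 to 0.775, against 0.784 to 0.968 among the others. Within the 400 kb around each member, its correlation with the Ler x Ler embryo was 0.415 to 0.598, against 0.882 to 0.924 for the Ler x Cvi embryo. The CG locus models, for some members, and the CG tissue counts of related genes are also given without it, and the CG tissue tests are given by pair. The label check, the calls pooled over embryos and the levels over the deeper libraries include it. So do the totals of the CHG and CHH tissue tests.

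The bodies of all 8 storage protein genes were close to unmethylated in every context, tissue and strain. In the calls pooled over embryos all 62 body windows had under 2% CG methylation, and the highest had 1.22%, a SESA2 coding window. Pooled over the 8 bodies, CG methylation in the 10 deeper libraries was 0.215% to 0.544% (median 0.318%), CHG methylation 0.154% to 1.25% (median 0.314%) and CHH methylation 0.205% to 0.753% (median 0.417%). Chloroplast DNA, which plants do not methylate and which measures failed conversion, read 0.0299% to 0.227% in CG, 0.024% to 0.213% in CHG and 0.0386% to 0.217% in CHH in the 7 of these libraries whose files hold chloroplast windows. In each context, each of these 7 libraries had a higher percent over the bodies than over its chloroplast windows, in CG by under 0.4 points. The gap was widest in CHG in the Cvi x Cvi endosperm (1.25%, against 0.127% over the chloroplast). In CHH it was widest in the Cvi x Cvi embryo (0.753%, against 0.137%). Conversion errors, calls from similar sequence elsewhere and true methylation at such levels cannot be told apart in these files.

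**Figure D1:**
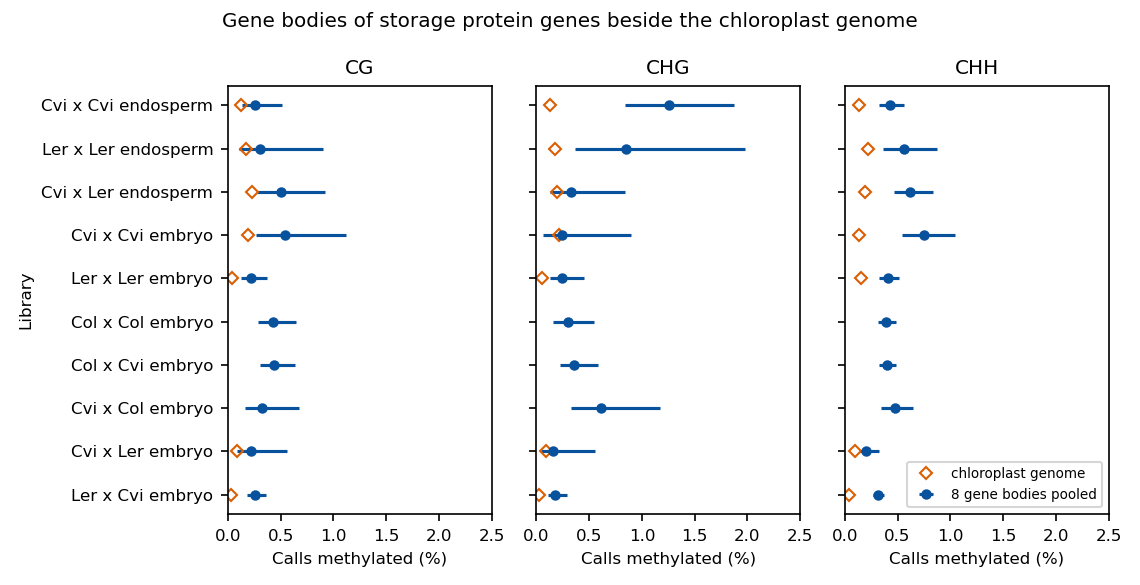
Percent of calls methylated over the 8 storage protein gene bodies (filled points, Wilson 95% intervals that cover counting error only) and over chloroplast windows (open points) in the deeper libraries, by context, endosperm libraries before embryo libraries. The CG values over the bodies lie between 0.215% and 0.544%, and the highest value of any context is 1.25% in CHG in the Cvi x Cvi endosperm.

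Each member was low on its own as well. Over the 10 libraries the CG level of the gene body was 0% to 4% for SESA1 (median 0.51%), 0% to 3.17% for SESA2 (median 0%), 0% to 0.452% for SESA3 (median 0.106%), 0% to 0.971% for SESA4 (median 0.432%) and 0% to 1.1% for SESA5 (median 0%). Among the cruciferins it was 0% to 2.37% for CRA1 (median 0.295%), 0% to 1.04% for CRU2 (median 0.137%) and 0% to 0.685% for CRU3 (median 0%). The highest of these values came from libraries with fewer calls: SESA1 reached 4% in the Cvi x Ler endosperm, SESA2 3.17% in the Cvi x Cvi embryo and CRA1 2.37% in the Cvi x Ler embryo. The highest SESA3 and SESA5 values came from the more deeply read Col x Col and Col x Cvi embryos. With all 10 libraries pooled, the bodies ranged only between 9 methylated of 7226 CG calls in CRU3 (0.125%) and 20 of 3613 in SESA4 (0.554%).

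Of 553 CG values of single body windows in single libraries, 461 were at 0 and 4 were at 5% or more, each from at most 2 methylated calls. The highest was the SESA1 window chr4:13607801-13608100 in the Cvi x Cvi embryo, with 2 of 11 calls methylated (18.2%, Wilson 95% interval 5.14% to 47.7%). The same window had 2 of 18 calls methylated in the Cvi x Ler endosperm. In CHG the bodies were highest in the Cvi x Cvi endosperm, with 23 of 1834 calls (1.25%, interval 0.837% to 1.88%), against 2 of 809 calls (0.247%) in the Cvi x Cvi embryo. In CHG, 16 of the 62 body windows were tested in this pair and 0 were called. A call needs a gap of 35 points, as given below, which windows at such levels could not reach. The window test therefore does not bear on this contrast.

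Low body methylation is common among genes in these libraries. Over all protein-coding genes the median CG level of the body was 1.27% in the Ler x Ler endosperm and 4.74% in the Col x Col embryo, and 47.5% and 37.4% of genes in those libraries had at most 1%. The members thus sit in the sizeable low part of that distribution, and their low level does not set them apart from it.

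Promoters were low in CG methylation too. Over the windows of each of the same 7 promoters, there was at most 1.23% CG methylation in the calls pooled over endosperms (CRA1, 1 of 81 calls) and at most 0.583% in those pooled over embryos (SESA3, 5 of 858 calls). The clustered RY elements and the CG sites printed above therefore lay in DNA that read as unmethylated in both tissues.

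**Figure D2:**
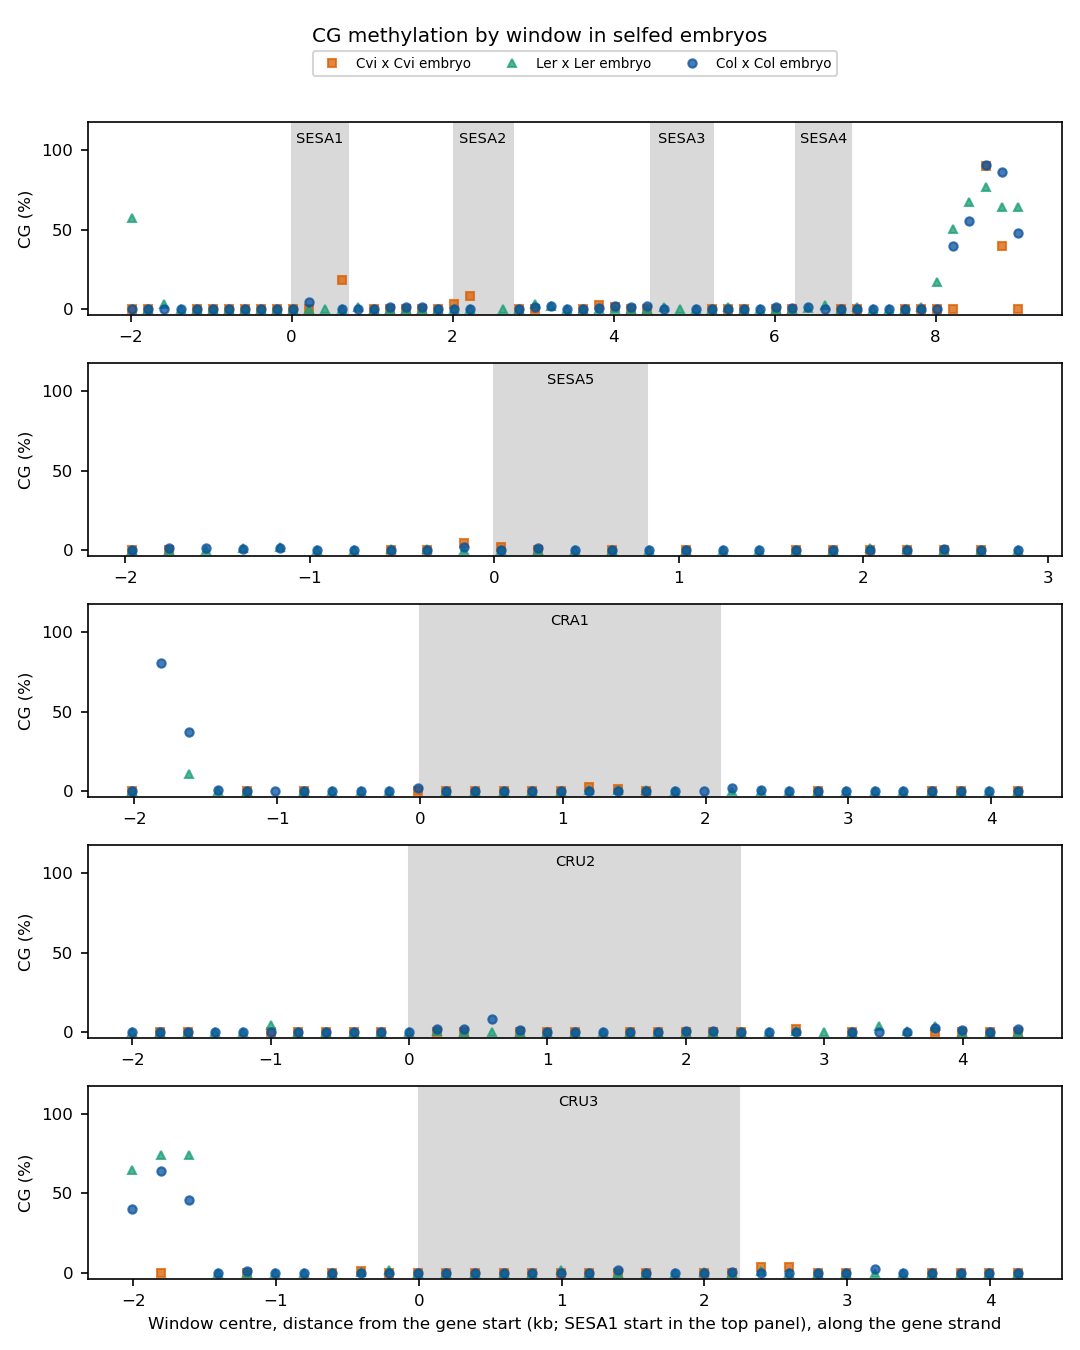
CG methylation (percent of calls, windows with at least 10 calls) in the Cvi x Cvi, Ler x Ler and Col x Col embryos against distance from the gene start in kb, with SESA1 to SESA4 in one panel and gene bodies shaded. Bodies and near flanks lie at the floor, and the raised windows stand toward the outer ends of the flanks of SESA1, SESA4, CRA1 and CRU3, up to 90.6% in the ATK2 window near SESA4 in Col x Col.

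Methylation near the storage protein genes was confined in these data to a few windows at the outer parts of the flanks. In the calls pooled over embryos, 164 of the 178 windows had under 2% CG methylation and 11 had 10% or more. Of those 11, 9 lay in other annotated genes, 2 lay outside annotated genes and 0 lay in a member body. Over the 10 libraries the windows in other annotated genes had 1.51% to 11.2% CG methylation (median 6.89%), and those outside annotated genes 0.343% to 4.1% (median 0.909%). SESA2, SESA3, SESA5 and CRU2 had no window at 10% in their body or in either flank.

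**Figure D3:**
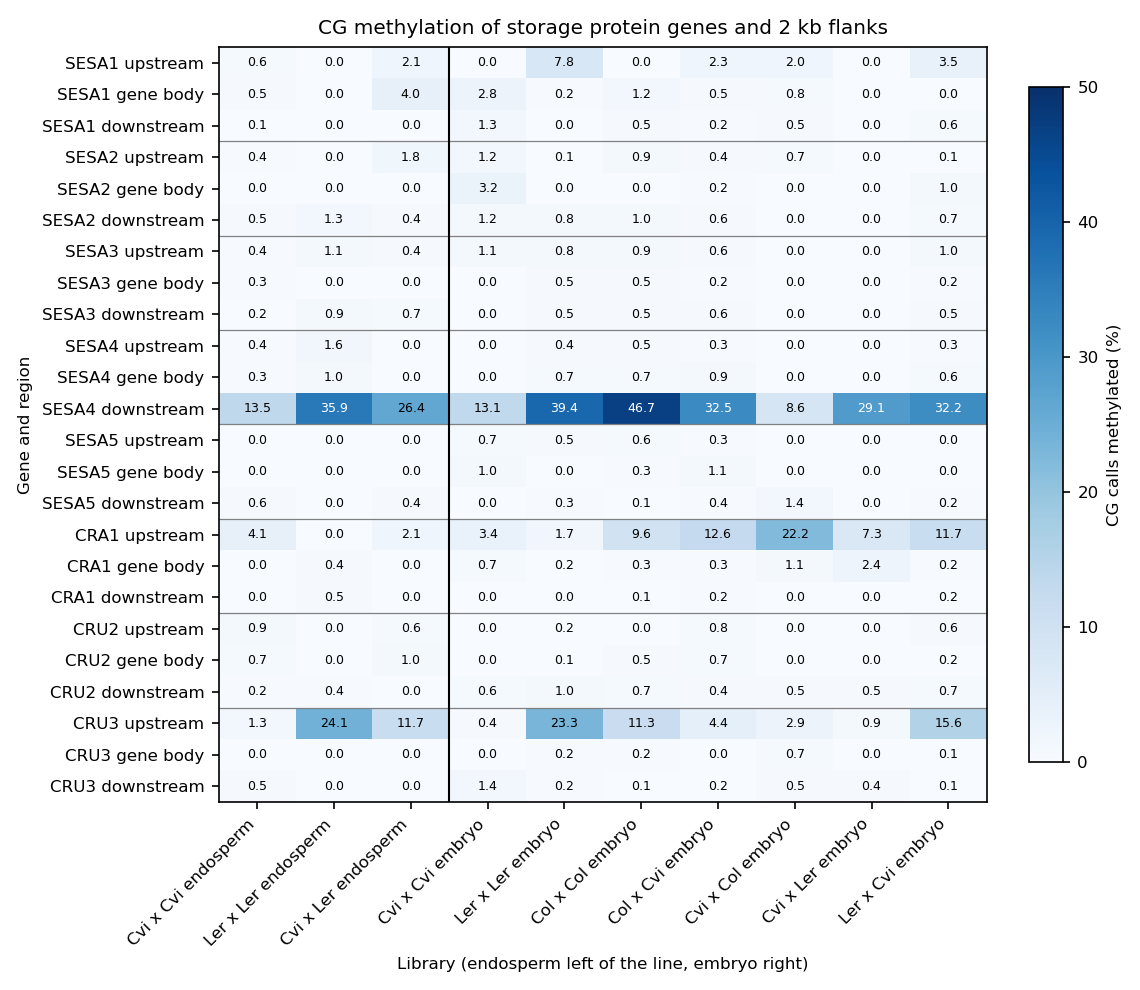
CG methylation (percent of calls) of the upstream flank, gene body and downstream flank of each storage protein gene (rows) in each of the deeper libraries (columns, endosperms before embryos). Levels above 5% are limited to SESA4 downstream (8.55% to 46.7% in the deeper libraries), CRU3 upstream (0.413% to 24.1%), CRA1 upstream (0% to 22.2%) and SESA1 upstream (0% to 7.78%).

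Downstream of SESA4, a run of windows in ATK2 was methylated in CG only. The window chr4:13615801-13616100 had 81% CG methylation in the pooled embryo calls, against 0.45% in CHG and 0.59% in CHH. Its CG level was 51% (26 of 51 calls) in Cvi x Cvi endosperm, 41.2% (14 of 34) in Ler x Ler endosperm and 50% (21 of 42) in Cvi x Ler endosperm. In embryos it was 90% (9 of 10 calls) in Cvi x Cvi, 77.1% (64 of 83) in Ler x Ler, 90.6% (125 of 138) in Col x Col, 80.5% (91 of 113) in Col x Cvi, 60% (30 of 50) in Cvi x Ler and 80.9% (157 of 194) in Ler x Cvi. All 3 endosperm values were below all 6 embryo values, and the nearest were the Cvi x Cvi endosperm and the Cvi x Ler embryo that stood apart. The Ler x Ler pair passed the test, as given below, the Cvi x Ler pair did not, and the Cvi x Cvi embryo had too few calls for it.

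The neighbouring ATK2 windows differed in which libraries were methylated. At chr4:13616201-13616500 the selfed libraries had 0% (0 of 33 calls) in Cvi x Cvi endosperm, 24% (6 of 25) in Ler x Ler endosperm, 0% (0 of 18) in Cvi x Cvi embryo, 64.3% (45 of 70) in Ler x Ler embryo and 48.1% (25 of 52) in Col x Col embryo. The hybrids had 21.7% (10 of 46) in Cvi x Ler endosperm, 42.9% (39 of 91) in Col x Cvi embryo, 0% (0 of 16) in Cvi x Col embryo and 25% (22 of 88) in Ler x Cvi embryo. Both Cvi x Cvi libraries were at 0 here, and every Ler x Ler and Col x Col value was above 20%. At chr4:13615401-13615700 the values were 3.66% (3 of 82) in Cvi x Cvi endosperm, 46.2% (6 of 13) in Ler x Ler endosperm, 0% (0 of 19) in Cvi x Cvi embryo, 50.4% (66 of 131) in Ler x Ler embryo and 40% (16 of 40) in Col x Col embryo. Here too the Cvi x Cvi libraries were the low ones. The 4 hybrid embryos lay between them and the other selfed embryos, at 29.8% (31 of 104) in Col x Cvi, 30.4% (14 of 46) in Cvi x Col, 22.7% (5 of 22) in Cvi x Ler and 20.3% (36 of 177) in Ler x Cvi.

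Upstream of CRU3, 4 overlapping windows in PHB1 were methylated, again in CG. The window chr4:14085801-14086100 had 10.7% (3 of 28 calls) in Cvi x Cvi endosperm, 94.4% (17 of 18) in Ler x Ler endosperm and 31.3% (21 of 67) in Cvi x Ler endosperm. In embryos it had 74.3% (55 of 74) in Ler x Ler, 46.2% (18 of 39) in Col x Col, 25.7% (9 of 35) in Col x Cvi, 0% (0 of 17) in Cvi x Col, 0% (0 of 6) in Cvi x Ler and 54.1% (105 of 194) in Ler x Cvi. Ler x Ler libraries were the highest in each tissue, and the Cvi x Cvi embryo had no call in this window. In the next window toward the gene, chr4:14086001-14086300, the 3 endosperms had 0% (0 of 39) in Cvi x Cvi, 60.7% (17 of 28) in Ler x Ler and 32.4% (12 of 37) in Cvi x Ler. There the Col x Col embryo had 0 of 68 calls methylated and the Ler x Ler embryo 0 of 10, which was too few calls for the test. The window values are sums over whichever CG sites were covered, so windows with few calls may rest on different sites in different libraries, and this was not tested.

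Upstream of SESA1, the AT4G27130 window had methylated calls only in libraries with a Ler or a hybrid genome. It had 0% (0 of 85 calls) in Cvi x Cvi endosperm, 0% (0 of 16) in Ler x Ler endosperm and 13% (10 of 77) in Cvi x Ler endosperm. In embryos it had 0% (0 of 11) in Cvi x Cvi, 57.6% (80 of 139) in Ler x Ler, 0% (0 of 29) in Col x Col, 12.7% (20 of 158) in Col x Cvi, 27.3% (6 of 22) in Cvi x Col and 42.2% (57 of 135) in Ler x Cvi. The Ler x Ler embryo was the highest. The Col and Cvi hybrid embryos had methylated calls although both selfed embryos had none, with a limit from their counts of 0 of 10.3% in Col x Col and 27.3% in Cvi x Cvi.

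Upstream of CRA1, a pair of intergenic windows was methylated in all 3 contexts. The window chr5:17759801-17760100 had 19.7% CG methylation (12 of 61 calls) in Cvi x Cvi endosperm, 0% (0 of 5) in Ler x Ler endosperm and 15.4% (2 of 13) in Cvi x Ler endosperm. In embryos it had 57.1% (4 of 7) in Cvi x Cvi, 10.4% (5 of 48) in Ler x Ler, 36.9% (58 of 157) in Col x Col, 59.2% (84 of 142) in Col x Cvi, 51.4% (57 of 111) in Cvi x Col, 23.8% (5 of 21) in Cvi x Ler and 44.8% (77 of 172) in Ler x Cvi. The endosperms overlap the Ler x Ler embryo and lie below the other embryos. In CHH the same window had 4.39% (10 of 228) in Cvi x Cvi endosperm, 0% (0 of 5) in Ler x Ler endosperm and 0% (0 of 49) in Cvi x Ler endosperm. In embryos the CHH level was 2.27% (1 of 44) in Cvi x Cvi, 2.05% (4 of 195) in Ler x Ler, 10.9% (58 of 532) in Col x Col, 9.73% (50 of 514) in Col x Cvi, 16.1% (78 of 483) in Cvi x Col, 14.8% (4 of 27) in Cvi x Ler and 6.5% (41 of 631) in Ler x Cvi. The CHH values of endosperms and embryos overlapped, since the Cvi x Cvi endosperm lay above the Cvi x Cvi and Ler x Ler embryos. CHG levels were 3.33% (1 of 30) in Cvi x Cvi endosperm and 0% (0 of 6) in Cvi x Ler endosperm, and among embryos with over 50 calls they ran between 3.03% (2 of 66) in Ler x Ler and 14.2% (15 of 106) in Cvi x Col.

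The overlapping window chr5:17760001-17760300 had 8.33% CG methylation (1 of 12 calls) in Cvi x Cvi endosperm and 16.7% (2 of 12) in Cvi x Ler endosperm. Among embryos the Col x Cvi hybrid had 90.9% (30 of 33), the Cvi x Col hybrid 58.9% (33 of 56), the Cvi x Ler hybrid 37.5% (6 of 16), the Ler x Cvi hybrid 63.6% (49 of 77), the selfed Ler x Ler 83.3% (5 of 6) and the selfed Col x Col 80.4% (41 of 51). Both endosperms were below these 6 embryos, the nearest being the Cvi x Ler embryo that stood apart, and each endosperm had 12 calls, fewer than the 15 that the test required. In CHH, 0 of 249 calls were methylated in Cvi x Ler endosperm, against 4 of 42 (9.52%) in Cvi x Ler embryo, while the Cvi x Cvi endosperm had 5 of 107 (4.67%), against 0 of 25 in the Cvi x Cvi embryo.

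To ask where endosperm and embryo of the same cross differed, the methylated and unmethylated calls of each window were compared by a two-sided Fisher's exact test, with Benjamini-Hochberg adjustment over all nuclear windows of that pair. A call of difference needed an adjusted p under 0.01, a gap of 35 points or more (10 in CHH), and 15 calls or more (50 in CHH) from each library. Of 255 CG tests of member windows in 7 pairs, 2 were called, both lower in Ler x Ler endosperm, where 84 windows were tested and the share called over all windows was 6.01%. These were the AT4G27130 window upstream of SESA1 (0% in endosperm, against 57.6% in embryo, adjusted p = 8.88e-05, Fisher's exact test) and the ATK2 window chr4:13615801-13616100 downstream of SESA4 (41.2% in endosperm, against 77.1% in embryo, adjusted p = 0.00592, Fisher's exact test). The share of member windows called in this pair was 2.38%, below the share over all windows. The AT4G27130 window had 16 calls in endosperm, against 139 in embryo, so the CG sites covered may differ between the libraries, which was not tested. The window tests also count calls from the same read as independent.

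No member window was called in the Cvi x Cvi pair (80 tested, 7.6% called over all windows) or the Cvi x Ler pair (78 tested, 10.4% over all windows), with 0 and 2 at an unadjusted p under 0.05. The shallow Col x Cvi pair allowed 7 windows to be tested (11% called over all windows), the Cvi x Col pair 4 (8.1%), the Ler x Cvi pair 1 (15.3%) and the Col x Col pair 1 (10.1%), again with 0 called and 0 at an unadjusted p under 0.05 by Fisher's exact test. In CHG, 0 of 229 tests were called, with 0 at an unadjusted p under 0.05 and with 2.63% called over all windows of these pairs. In CHH, 0 of 352 tests were called, with 9 at an unadjusted p under 0.05 and with 2.86% over all windows. In the member bodies 88 CG tests of 47 windows gave differences between -4 and 3.85 points, of which 0 reached an unadjusted p under 0.05.

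Strains were compared in the same way with 5 pairs of libraries. Of 542 CG tests of member windows 8 were called, all in coding exons of AT4G27130, ATK2 or PHB1. In the Ler x Ler embryo against the Col x Col embryo, 1 of 162 windows was called, with 8.29% called over all windows: the AT4G27130 window, at 57.6% in Ler x Ler and 0% in Col x Col (adjusted p = 1.19e-08, Fisher's exact test). In the Cvi x Cvi embryo against the Col x Col embryo, 2 of 84 windows were called, with 9.82% over all windows, both in ATK2 and lower in Cvi x Cvi. They were chr4:13615401-13615700 (0% in Cvi x Cvi, against 40% in Col x Col, adjusted p = 0.00893, Fisher's exact test) and chr4:13616201-13616500 (0% in Cvi x Cvi, against 48.1% in Col x Col, adjusted p = 0.00106, Fisher's exact test). The same ATK2 windows were lower in the Cvi x Cvi embryo than in the Ler x Ler embryo (2 of 84 called, 9.71% over all windows, adjusted p = 9.14e-05 and 4.07e-06, Fisher's exact test).

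In the Cvi x Cvi endosperm against the Ler x Ler endosperm, 3 of 78 windows were called, all lower in Cvi x Cvi, with 8.04% called over all windows. In ATK2, chr4:13615201-13615500 had 0 of 42 calls methylated in Cvi x Cvi, against 12 of 33 in Ler x Ler (adjusted p = 0.000212, Fisher's exact test). In PHB1, chr4:14085801-14086100 had 10.7% in Cvi x Cvi, against 94.4% in Ler x Ler (adjusted p = 3.22e-07), and chr4:14086001-14086300 had 0% in Cvi x Cvi, against 60.7% in Ler x Ler (adjusted p = 2.03e-07), by Fisher's exact test. In ATK2 the windows called as lower in Cvi x Cvi thus differed between the tissues. By level, Cvi x Cvi was below Ler x Ler in both tissues at chr4:13615401-13615700 and chr4:13616201-13616500. At chr4:13615801-13616100, where no strain pair was called, it was above Ler x Ler in both tissues. The reciprocal embryos, Col x Cvi against Cvi x Col, gave 0 calls in 134 windows, with 3 at an unadjusted p under 0.05 and 0.577% called over all windows by Fisher's exact test. In CHG 0 of 494 strain tests were called (1 at an unadjusted p under 0.05; 0.997% over all windows) and in CHH 0 of 648 (15 at an unadjusted p under 0.05; 1.77% over all windows). In the member bodies 190 CG tests gave differences between -4.35 and 3.33 points, and 1 of them reached an unadjusted p under 0.05.

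**Figure D4:**
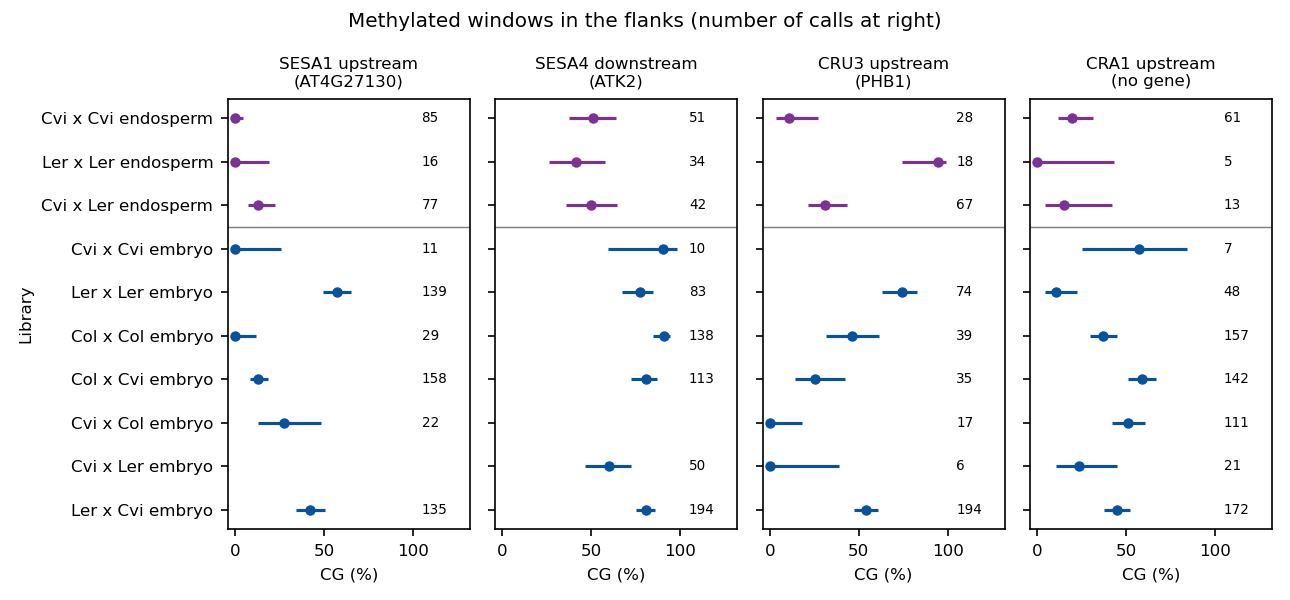
CG methylation (percent of calls, Wilson 95% intervals that cover counting error only) of the AT4G27130, ATK2, PHB1 and intergenic windows by library, endosperms before embryos. In the ATK2 window chosen for the tissue difference the endosperms lie at 41.2% to 51%, below the embryos at 60% to 90.6%.

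Whole loci, each a gene with its 2 kb flanks, were then compared with the crosses standing in as replicates, by limma on the percent of calls methylated with the cross as a block. The crosses share parents, so they are not independent replicates. Each percent had the same weight whatever its number of calls. Endosperm minus embryo in CG was below the 0.05 threshold on the adjusted p for 0 of the 8 members, with 0 at an unadjusted p under 0.05, where 0.0739% of 25699 loci were called. The members' median difference was -0.15 points, against -3.22 points over all loci. SESA4 averaged 5.09% in endosperm and 9.62% in embryo over 6 crosses (difference -4.53 ± 3.02 points, SE, limma adjusted p = 0.344, lower in 5 of 6). CRA1 averaged 0.532% in endosperm and 2.36% in embryo over 4 crosses (-1.82 ± 0.943 points, SE, limma adjusted p = 0.264, lower in 4 of 4). SESA1 averaged 0.396% in endosperm and 1.52% in embryo over 5 crosses (-1.12 ± 0.769 points, SE, limma adjusted p = 0.356, lower in 4 of 5). CRU3 averaged 2.42% in endosperm and 2.01% in embryo over 5 crosses (0.40 ± 1.01 points, SE, limma adjusted p = 0.804). With only the 3 crosses whose endosperm was deep, SESA4 averaged 10.2% in endosperm and 9.66% in embryo, so its direction turned (0.52 ± 3.94 points, SE, limma adjusted p = 0.961), and CRU3 averaged 4.03% in endosperm and 2.46% in embryo (1.57 ± 1.57 points, SE, limma adjusted p = 0.642). In those crosses SESA1 had -0.90 ± 1.13 points (SE, limma adjusted p = 0.712, lower in 2 of 3) and CRA1 -1.14 ± 0.921 points (SE, limma adjusted p = 0.572, lower in 3 of 3). The shallow endosperms had CG calls in at most 10 of the 59 windows in other annotated genes, with 0 calls methylated. Counts of lower crosses that include them may thus compare different parts of a locus. Without the Cvi x Ler cross, SESA1 averaged 0.107% in endosperm and 1.89% in embryo (-1.79 ± 0.613 points, SE, lower in 4 of 4 crosses), with an unadjusted p of 0.0153 and a limma adjusted p of 0.116, and CRU3 turned to -0.35 ± 0.915 points. SESA2, SESA3, SESA5 and CRU2, which have no methylated window, had differences between -0.27 and 0.20 points. In CHG 0 of 7 members were called (0.0387% of all loci) and in CHH 0 of 8 (0% of all loci), with 0 at an unadjusted p under 0.05 in either context by limma.

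The 7 embryos were also fitted with the share of the Cvi genome and the share of the Ler genome as terms, which assumes that a hybrid lies midway between its parents. For Cvi minus Col in CG, limma called 0 of 8 members, with 0 at an unadjusted p under 0.05, against 7.21% of 27087 loci, and the members' median was -0.40 points, against -4.51 points over all loci. SESA4 had -10.2 ± 5.04 points (SE, limma adjusted p = 0.231) and CRU3 -3.96 ± 2.00 points (SE, limma adjusted p = 0.241), the loci whose flanks hold ATK2 and PHB1. For Ler minus Col, limma called 0 of 8 members, with 0 at an unadjusted p under 0.05, against 1.42% of loci. SESA1 had 2.04 ± 1.16 points (SE, limma adjusted p = 0.485) and CRA1 -4.69 ± 2.86 points (SE, limma adjusted p = 0.523). Without the Cvi x Ler embryo, SESA1 passed the threshold, at 2.78 ± 0.631 points (SE, limma adjusted p = 0.0246), where 13.8% of loci were called, and CRU3 had 3.49 ± 1.07 points for Ler minus Col and -3.07 ± 1.19 points for Cvi minus Col (SE, limma adjusted p = 0.0677 and 0.075, unadjusted p = 0.0112 and 0.0318). The only window of the SESA1 locus at 10% CG methylation or more in the pooled embryo calls was the AT4G27130 window, outside SESA1. With the gene body only, Ler minus Col for SESA1 had the opposite sign, as given below. In CHG, 0 of 8 members were called for either term (0.34% and 1.06% of loci), with 2 at an unadjusted p under 0.05 for Cvi minus Col, SESA2 and SESA3. In CHH, 0 of 8 were called for either term (0% and 0.807% of loci), with 0 at an unadjusted p under 0.05 by limma.

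SESA4 was the member whose CG locus level varied most among the 10 deeper libraries, between 3.39% in the Cvi x Col embryo and 15.4% in the Ler x Ler embryo, a span of 12 points. CRA1 spanned 9.01 points and CRU3 7.19 points, SESA1 3.88 points, and the other members at most 1.51 points. The protein-coding loci with levels nearest to those of SESA4 over the 10 libraries were AGO1 (mean absolute difference 1.29 points), AT1G61780 (1.4 points) and AT5G13770 (1.41 points). The points share libraries and depth, and the likeness is one of levels only.

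Some of the albumin copies are alike enough that some reads could be shared. Coding sequences of SESA1 to SESA4 were 82.6% to 94.1% identical in pairs, SESA2 and SESA3 being the closest, and SESA5 was 69.2% to 69.8% identical to them. After conversion of every C to T on either strand, 6.33% of the 50 nt words of SESA3 and 5.54% of those of SESA2 occurred elsewhere in the genome, against 1.64% for SESA4, 0.917% for SESA1, 0.73% for CRU3 and 0% for SESA5, CRA1 and CRU2. Calls per cytosine in the body were 0.591 (SESA3) to 1.01 (CRA1) times those in the flanks as a median over the 10 libraries, so the bodies were read less deeply than their flanks for all members but CRA1. Levels of the SESA2 and SESA3 bodies may thus include reads from similar sequence, which was not tested. The study states that its methylation profiles came from reads that mapped uniquely.

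For comparison with genes that act on or beside the storage proteins, 31 related seed genes were counted by the same rule. In CG, 23 of the 31 had a window called between endosperm and embryo, with 81 of 1443 tests lower and 7 higher in endosperm, and without the Cvi x Ler pair 17 genes had one, with 41 of 966 tests lower and 2 higher. By pair, 4.05% of their windows were called in Ler x Ler, 5.37% in Cvi x Cvi and 9.43% in Cvi x Ler, each below the share over all windows of that pair (6.01%, 7.6% and 10.4%). Between strains 26 of the 31 had a called window, and the share of their windows called was above that over all windows in the Cvi x Cvi embryo against the Col x Col embryo (12.3%, against 9.82%) and below it in the other 4 pairs (0.266% to 8.61%, against 0.577% to 9.71%). Regulators of seed maturation had a called window in 13 of 14 genes in the tissue comparison, or 9 of 14 without the Cvi x Ler pair, and in 13 of 14 in the strain comparison, and the late embryogenesis genes EM1 and GEA6 in 0 of 2 in both comparisons. These counts include gene bodies and flanks, and the difference between the lists was not tested. Each gene had many windows in several pairs, and the share of all genes with a called window was not counted. The counts of genes therefore do not set the related genes or the regulators apart from other genes.

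Among related genes, the largest differences that do not involve the Cvi x Ler embryo lay in a body window of HSI2 (VAL1), a B3-domain repressor of the seed programme, at 0% in Cvi x Cvi embryo (0 of 45 calls) and 97.7% in Ler x Ler embryo (43 of 44), and in a flank window of OLEO3, an oil body oleosin, at 1.23% in Cvi x Cvi endosperm (1 of 81) and 96.6% in Ler x Ler endosperm (28 of 29). BETA-VPE, a vacuolar enzyme that processes storage proteins, had 5.88% in Cvi x Cvi endosperm (7 of 119) and 100% in Ler x Ler endosperm (17 of 17). VSR1, a receptor that sorts storage proteins to the vacuole, had 93.5% in Ler x Ler embryo (29 of 31) and 0% in Col x Col embryo (0 of 30). ABI5, ALPHA-VPE and GAMMA-VPE also had body windows that differed by 86.2 to 90.5 points between selfed embryos. All of these passed the window test, and each compares 1 library with 1 library. Tissue differences at PKL (PICKLE), BZIP25 and LEC1 rested on the Cvi x Ler pair, whose embryo stood apart.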

How the data were processed

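According to the methods of the study, low-quality reads were discarded (the submitters' processing notes name FastQC), and the authors mapped the rest with Bismark (version not given in the sources used here) to TAIR10, a Ler genome or a Cvi-substituted TAIR10, converted Ler positions to TAIR10, removed redundant reads and kept cytosines with at least 5 reads. The deposited weighted files give the count of unmethylated and the count of methylated calls per window and their percent. The deposited window mean files give the mean percent of single cytosines and served as an alternative. Ler positions and Cvi reads depend on that mapping, so missing calls may reflect sequence differences from Col.

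Calls were summed over windows overlapping each region. Neighbouring windows overlap by 100 nt, so a call can count more than once. Wilson 95% intervals, and the limit of 3 counts for a count of 0, cover counting error only. Fisher's exact tests required 3 reference cytosines (10 in CHH), replacing the study's informative cytosines, which these files do not give. Locus models used limma 3.58.1 in R 4.3.3. Loci needed at least 15 calls (50 in CHH) in both tissues of at least 4 crosses, or in all 7 embryos for strains. The fit on the 3 deeper crosses needed all 3 crosses. Other steps used Python 3.11.15, scipy 1.17.1 and Biopython 1.88, and the tests were checked on simulated data. The members, the related list and the tests were chosen with earlier results of these data known. Named were all members, their highest and called windows, the 10 related genes with the largest called difference and the 3 loci most like a member spanning at least 10 points. The promoter of 1 member is not reported here. Protein sequences and an annotation of transposable elements were not used here.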

Additional observations from a re-analysis of the deposited data

Results flagged for a closer look

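The Col x Col endosperm is nearly missing from the comparisons above, since its weighted files hold CG calls for 4 of the 178 member windows. Its window mean file holds 113 of them, without the number of calls behind each value, so depth is unknown there. Of these, 108 were at 0, among them all 38 body windows, and 4 were at 10% or more. They were drawn to attention because they are a signal in data that no comparison used. The ATK2 window chr4:13615601-13615900 downstream of SESA4 stood at 66.7%, and the Col x Col embryo had 55.2% (37 of 67 calls) there in the weighted file. The 3 PHB1 windows upstream of CRU3 beginning at 14085401, 14085601 and 14085801 on chromosome 4 stood at 50.0% each, and the Col x Col embryo had 40.5%, 64.1% and 46.2%. The 2 libraries were not tested against each other at these windows. In this file both CRA1 upstream windows stood at 0%, where the Col x Col embryo had 36.9% and 80.4%.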

How the results depend on the processing

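The tissue model paired the endosperm and embryo of each cross by a block, and without it 0 members passed the threshold in any context, as with it. The median CG level of member body windows over the 10 libraries stayed within the spread between libraries under every alternative tried, and so did the CG counts of called windows: 2 by tissue (3 at an adjusted p of 0.05) and 8 by strain (9 to 11 under the alternatives). A threshold of 5 points in CHH called 1 strain window in place of 0. The median over windows in other annotated genes (6.89% in CG) was 6.33% as an unweighted mean, 6.20% in the window mean files, 6.27% over every other window, 0.60% with 1 kb flanks and 7.78% over windows with at least 15 calls, and its CHH median was 0.436% with 1 kb flanks. Outside annotated genes the CG median (0.909%) was 1.83% as an unweighted mean, 1.83% in the window mean files and 0.353% with 1 kb flanks, the CHG median was 0.406% with 1 kb flanks, and the CHH median (0.524%) was 0.565% in the window mean files, 0.474% over every other window, 0.399% with 1 kb flanks and 0.484% with a minimum of calls. Shorter flanks leave out the PHB1, AT4G27130 and CRA1 windows by construction. They also leave out the ATK2 windows named above, except chr4:13615201-13615500, which lies 918 nt from SESA4. The cause of the other shifts was not tested.

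The signs of locus differences that missed the threshold were not stable. With the gene body only, Cvi minus Col was 0.98 points for SESA1 and 0.83 for CRA1, and Ler minus Col was -1.07 for SESA1, -0.0759 for SESA4, 0.31 for CRA1 and -0.20 for CRU3. Endosperm minus embryo was 0.52 points for SESA4 without the 4 crosses with a shallow endosperm, and -0.35 points for CRU3 without the Cvi x Ler cross and -0.0132 on an arcsine scale. Leaving out 1 embryo at a time, Cvi minus Col ranged between -2.39 and 0.40 points for SESA1 (above 0 without Ler x Ler or Cvi x Ler) and between -8.37 and 3.08 for CRA1 (above 0 without Cvi x Cvi), and Ler minus Col between -0.20 and 2.78 for SESA1 (below 0 without Ler x Ler) and between -1.37 and 3.52 for SESA4 (below 0 without Cvi x Col). The number of members past the threshold for Ler minus Col ranged from 0 to 1 when 1 embryo was left out, the call being SESA1 (2.78 points, limma adjusted p = 0.0246) without the Cvi x Ler embryo.

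Counts over all loci also moved between settings, and counts out of 8 members are too small to be set against them. In CG, the tissue model called 19 loci, against 93 without the Cvi x Ler cross, 163 without the cross block, 1372 lower and 1 higher on the arcsine scale and 0 with bodies only or with the 3 deeper crosses. The strain model called 1952 loci for Cvi minus Col, against 8968 lower and 622 higher without the Cvi x Ler embryo, 153 lower and 42 higher with bodies only and 0 without any other single embryo. Leaving the Cvi x Ler embryo out of the pooled calls and its pair out of the window tests was chosen after seeing the data. The pooled values printed above include that embryo. The 2 tissue calls did not involve the Cvi x Ler pair. Of 116 values of the methylated windows, 114 in the window mean files lay within the Wilson interval of the weighted value. Depth limits the endosperm most: windows with 13 to 42 calls (median of the 3 deeper endosperms) cannot show differences of a few points.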
